A study of Homo sapiens with 8 samples.

Results

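The genes described here are 51 regulators of alternative splicing: the heterogeneous nuclear ribonucleoproteins (hnRNPs) and the RNA-binding proteins and coactivators that act with or beside them on exon choice. They were taken from a fixed list of gene symbols, matched to Ensembl gene identifiers through the GENCODE annotation of GRCh38, and make up 51 of the 60624 genes with a deposited read count. The counts come from A549, an established human lung adenocarcinoma line, grown as 4 groups: untreated (UT), indisulam, SPHINX31, and both compounds together (the combination). Indisulam is an aryl sulfonamide that brings the splicing factor RBM39 to the DCAF15 ubiquitin ligase for degradation, and SPHINX31 inhibits SRPK1, a kinase of serine/arginine-rich splicing factors. The study's methods give 24 h with 0.5 μM indisulam and 5 μM SPHINX31, whereas the deposited labels give 2 μM and 18 h for every sample. All groups are the same parental line. Each group had 2 technical replicates, so the p-values below measure the spread between such replicates and not between independent treatments.

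Most hnRNPs bind nascent transcripts and hold back the use of exons, whereas serine/arginine-rich (SR) proteins and SR-related coactivators favour exon inclusion, and the balance of both sets is known to shape splicing patterns. Other members read particular sequences: the CELF, MBNL, RBFOX and ESRP proteins set tissue-specific exon programmes, and ESRP1 and ESRP2 keep the epithelial forms of many transcripts. Several genes of these families are known to control their own messenger RNA through exons that lead to nonsense-mediated decay (NMD), the pathway that destroys transcripts with a premature stop.

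The libraries held from 51727369 to 63186989 counts on genes, and 83.0% to 86.0% of all reads were assigned to a gene. Levels are given in CPM, counts scaled to a common library size after TMM adjustment, and comparisons between genes in TPM, which also divides by exon length. The epithelial keratins KRT8 and KRT18 lay between 3378 and 4103 CPM in every library, and EPCAM and CDH1 between 25.4 and 106 CPM. Of the markers of other cell types, PECAM1 had 83 to 133 counts per library and COL1A1 175 to 270. The leukocyte gene PTPRC and the fibroblast gene DCN had at most 5 counts in any library, and the surfactant gene SFTPC had at most 18. RNA of RBM39, whose protein indisulam removes, was 154 and 157 CPM in untreated cells and 361 and 360 with indisulam (log2 fold change 1.22, SE 0.0553). RNA of SRPK1, whose kinase activity SPHINX31 blocks, was 128 and 130 CPM in untreated cells and 118 and 131 with SPHINX31 (log2 fold change -0.04, SE 0.0552). Since these are bulk cultures, fewer cells of one kind and less RNA per cell cannot be told apart.

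In untreated cells the 51 genes covered a wide range of levels. HNRNPA1, a repressor of exon inclusion, stood first at 885 ± 15.3 TPM (SD, n = 2). HNRNPK at 535 ± 16.6, PCBP1 at 534 ± 2.60 and HNRNPA2B1 at 526 ± 22.8 TPM came next and did not differ beyond their spread. HNRNPAB (428 ± 21.3 TPM), HNRNPC (409 ± 17.1 TPM) and HNRNPF (351 ± 10.9 TPM) followed. At the other end, CELF2 had 0.138 TPM on 26 counts in each library and MBNL3 had 0.412 TPM. MATR3 had 0.520 TPM, but a second record of the same name shares part of its exons, so its place in this order is uncertain. Together the members took 1.41% and 1.45% of gene counts in untreated cells, 1.60% and 1.52% with indisulam, 1.34% and 1.40% with SPHINX31, and 1.55% and 1.56% with the combination. The summed share was therefore higher in each of the 4 libraries with indisulam than in each of the 4 without it.

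The first comparison asked how the RNA of these regulators differed between indisulam and untreated cells. More members rose than fell. The coactivators SRRM1 and TRA2A, the hnRNPs HNRNPL, HNRNPC and HNRNPDL, and the single-stranded DNA-binding regulator FUBP1 rose by 1.38-fold to 1.61-fold. The epithelial regulators ESRP1 and ESRP2 fell to 0.543 and 0.677 of their untreated level, and the FET proteins TAF15 and EWSR1 fell to 0.735 and 0.756. All 51 members passed the filter on low counts. At an adjusted p under 0.05 (edgeR's quasi-likelihood test over all 18661 tested genes, a gene past it being called), 29 members were called, 19 higher and 10 lower. Of all tested genes 43.7% were called, 20.1% higher and 23.5% lower. The median log2 fold change was 0.09 over the members and -0.004 over all tested genes. Where the average log2 CPM was 5 or more, 26 of 43 members (60.5%) and 52.2% of all tested genes were called. With each library left out in turn, 20 of the 29 calls stayed. The other 9 were lost at least once: HNRNPA3, HNRNPF, HNRNPH3, HNRNPR, KHDRBS1, PCBP1, RALY, TIA1 and TIAL1. The count was 22 without untreated replicate 1 or without indisulam replicate 1, 23 without untreated replicate 2, and 26 without indisulam replicate 2.

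**Figure D1:**
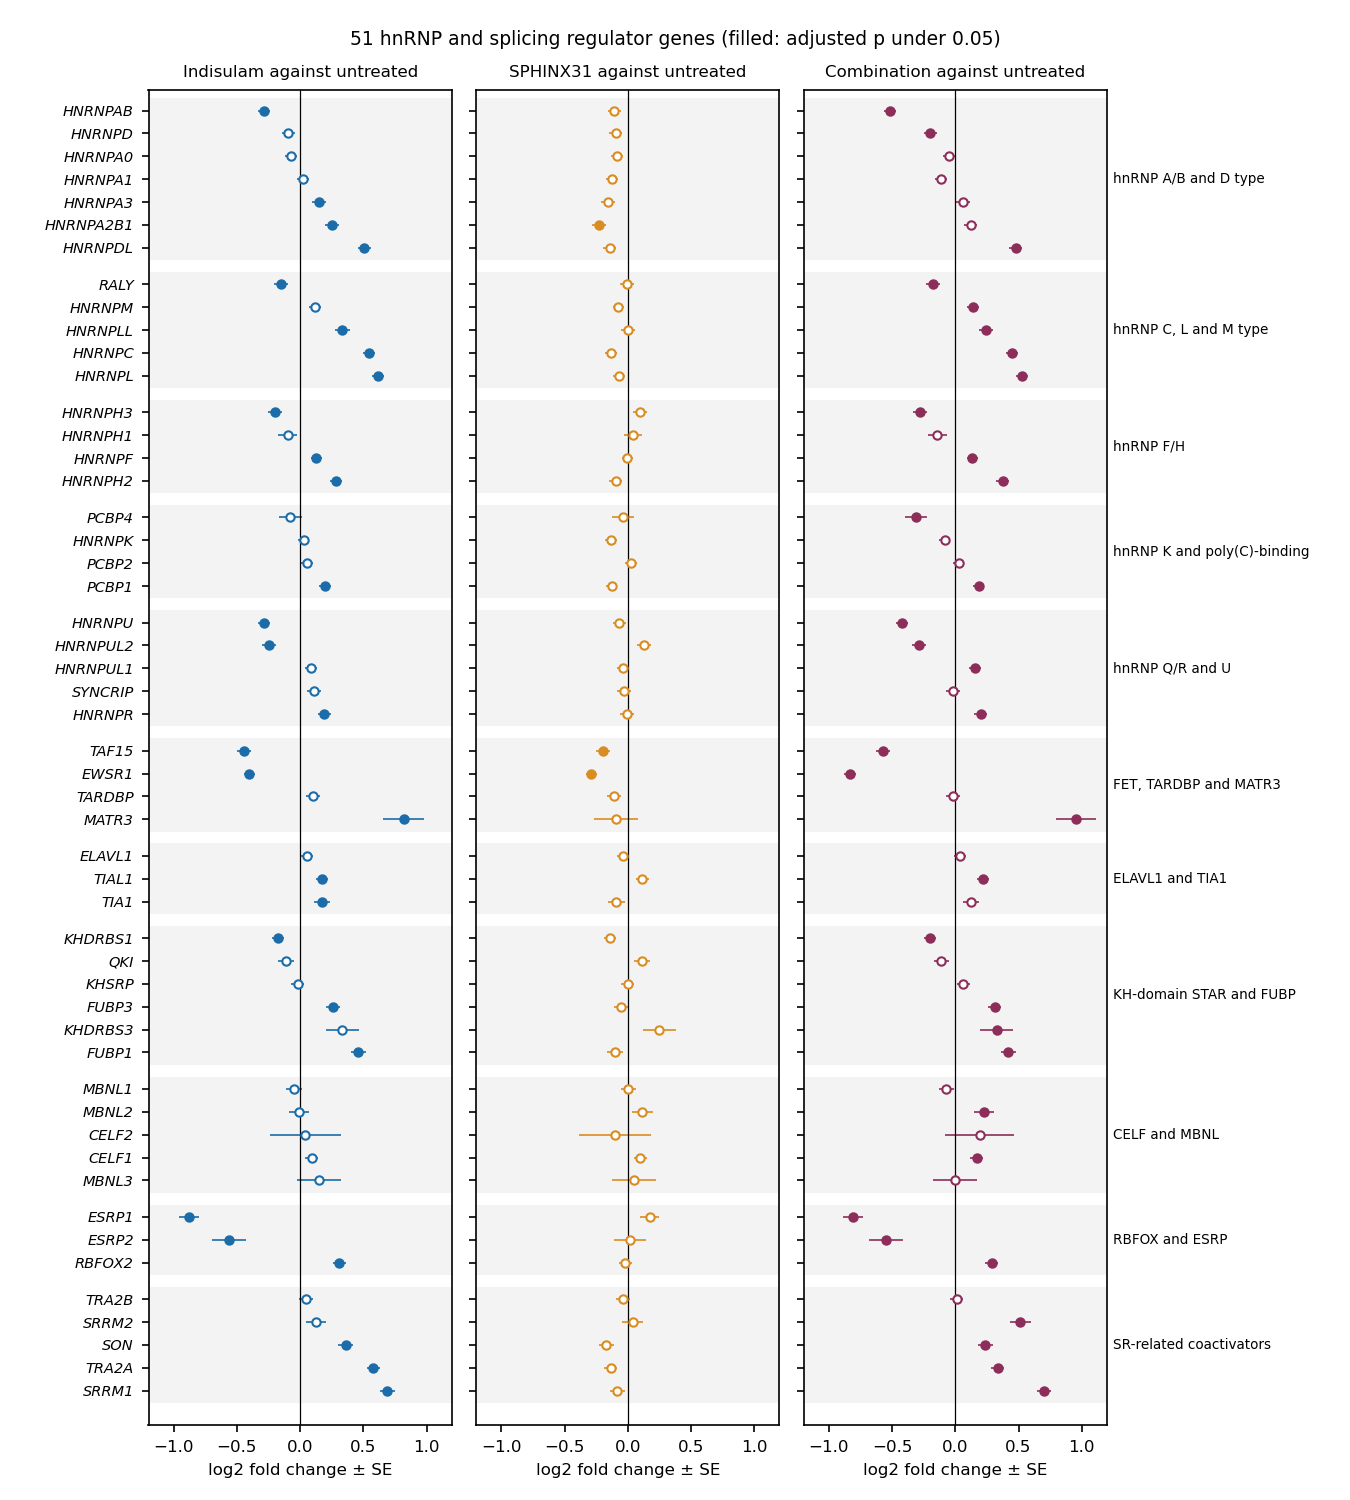
Log2 fold change against untreated cells (x axis, ± SE) of each of the 51 genes (y axis, grouped by family) for indisulam, SPHINX31 and the combination. Filled points have an adjusted p under 0.05: 29 genes with indisulam, 3 with SPHINX31 and 34 with the combination.

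Among the SR-related coactivators, which carry arginine/serine repeats and bridge splicing factors on the pre-mRNA, 3 of 5 rose with indisulam and none fell. SRRM1 (ENSG00000133226, chromosome 1 of GRCh38, 24631716 to 24673281, plus strand), a coactivator that associates with the exon junction complex, had 89.8 and 87.9 CPM in the untreated libraries and 142 and 145 with indisulam. It had 78.5 and 89.1 CPM with SPHINX31 and 146 and 143 with the combination. The 4 libraries with indisulam lay above the 4 without it, and the log2 fold change was 0.69 (SE 0.0592, adjusted p = 1.06e-06). TRA2A, an exon enhancer-binding protein, rose by 0.58 on the log2 scale (SE 0.0522), and SON, a scaffold of nuclear speckles, by 0.36 (SE 0.0597). TRA2B, the closest relative of TRA2A, was not called (0.05, SE 0.0529), nor was SRRM2, another speckle scaffold (0.12, SE 0.0811).

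The hnRNP C, L and M type had 3 members higher and 1 lower of 5. HNRNPL (ENSG00000104824, chromosome 19, 38836370 to 38852347, minus strand), which binds CA repeats, had 298 and 299 CPM in untreated cells, 467 and 446 with indisulam, 276 and 292 with SPHINX31, and 432 and 428 with the combination. Its libraries formed separate levels with and without indisulam (log2 fold change 0.61, SE 0.0480, adjusted p = 4.57e-07). HNRNPC, which binds uridine tracts and masks cryptic exons, had 829 and 847 CPM untreated and 1236 and 1208 with indisulam, a log2 fold change of 0.54 (SE 0.0484). HNRNPLL, the paralog of HNRNPL, rose by 0.33 (SE 0.0570), while RALY, the paralog of HNRNPC, fell by 0.15 (SE 0.0554). HNRNPM just missed the threshold at 0.12 (SE 0.0451, adjusted p = 0.0507). GENCODE lists 9 pseudogenes named after HNRNPC, 16 after HNRNPA3 and 74 after HNRNPA1, so that reads of these genes may be split or lost.

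Of the 7 hnRNPs of A/B and D type, which bind AU-rich and UAG-containing RNA, 3 rose and 1 fell. HNRNPDL (ENSG00000152795, chromosome 4, 82422565 to 82430462, minus strand) had 260 and 269 CPM untreated, 381 and 371 with indisulam, 231 and 248 with SPHINX31, and 362 and 375 with the combination. Indisulam was thus accompanied by a level above all libraries without it (log2 fold change 0.51, SE 0.0503, adjusted p = 3.68e-06). HNRNPA2B1, a repressor that also reads N6-methyladenosine, rose by 0.25 (SE 0.0542) and HNRNPA3 by 0.15 (SE 0.0542). HNRNPAB, a CArG-box and RNA-binding protein, fell by 0.29 (SE 0.0493). HNRNPA0 (-0.07), HNRNPA1 (0.02) and HNRNPD (-0.10) were not called. Exons of NFE2L2 on the opposite strand cover 53.6% of the HNRNPA3 exon bases, and the strand setting of the counting is not given in the sources used here.

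The FET, TARDBP and MATR3 group held the largest increase and 2 of the larger decreases. EWSR1 (ENSG00000182944, chromosome 22, 29268009 to 29300525, plus strand), an RNA-binding protein that links transcription and splicing, had 314 CPM in both untreated libraries and 239 and 236 with indisulam. With SPHINX31 it had 258 and 257 CPM, and with the combination 176 in both libraries. None of the 4 groups overlapped, and with indisulam the log2 fold change was -0.40 (SE 0.0441, adjusted p = 8.60e-06). TAF15, its FET relative, fell by 0.44 (SE 0.0550). TARDBP, which represses cryptic exons, was not called (0.10, SE 0.0555).

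MATR3 (ENSG00000015479, chromosome 5, 139293674 to 139331677, plus strand), a nuclear matrix protein that represses exons, had 1.81 and 1.71 CPM in untreated cells, 3.34 and 2.87 with indisulam, 1.49 and 1.79 with SPHINX31, and 3.80 and 3.04 with the combination. These values rest on 81 to 217 counts per library, and the groups with and without indisulam did not overlap (log2 fold change 0.82, SE 0.159, adjusted p = 0.001). A second Ensembl record of the same name, with 1 to 8 counts per library, shares 42.6% of the exon bases of the first on the same strand. The levels therefore cannot be read as the whole expression of the gene, and how many of its reads were set aside as ambiguous was not tested.

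In the RBFOX and ESRP group all 3 members were called. ESRP1 (ENSG00000104413, chromosome 8, 94641074 to 94707466, plus strand), the main epithelial splicing regulator, had 17.4 and 18.6 CPM untreated and 9.96 and 9.60 with indisulam. It had 19.5 and 21.1 CPM with SPHINX31 and 9.90 and 10.6 with the combination. All 4 libraries with indisulam lay far below the 4 others (log2 fold change -0.88, SE 0.0787, adjusted p = 1.49e-06). ESRP2, at 4.16 and 3.81 CPM untreated and 2.56 and 2.85 with indisulam, fell by 0.56 (SE 0.137). RBFOX2, which binds GCAUG and is active in mesenchymal exon programmes, rose by 0.31 (SE 0.0511) from 107 and 112 CPM to 136 and 135.

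The hnRNP Q/R and U group had 1 member higher and 2 lower of 5. HNRNPU (ENSG00000153187, chromosome 1, 244840638 to 244864560, minus strand), the scaffold attachment factor, had 710 and 735 CPM untreated, 615 and 569 with indisulam, 679 and 700 with SPHINX31, and 539 and 540 with the combination. It was lower in each library with indisulam (log2 fold change -0.29, SE 0.0495, adjusted p = 4.18e-04). HNRNPUL2 fell by 0.25 (SE 0.0561), but shares 44.3% of its exon bases on the same strand with the readthrough gene HNRNPUL2-BSCL2. HNRNPR rose by 0.19 (SE 0.0534). SYNCRIP, or hnRNP Q, and HNRNPUL1 were not called (0.11 and 0.08).

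In the hnRNP F/H family, whose members bind G runs, 2 of 4 rose and 1 fell. HNRNPH2 (ENSG00000126945, chromosome X, 101408222 to 101414133, plus strand) had 97.5 and 95.9 CPM untreated, 120 and 116 with indisulam, 89.1 and 91.9 with SPHINX31, and 124 and 126 with the combination. Its groups with indisulam were above those without (log2 fold change 0.29, SE 0.0486, adjusted p = 3.64e-04). The readthrough gene RPL36A-HNRNPH2 overlaps 15.8% of its exon bases. HNRNPF rose by 0.13 (SE 0.0436), HNRNPH3 fell by 0.20 (SE 0.0567), and HNRNPH1 was not called (-0.10, SE 0.0737).

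Of HNRNPK and the 3 poly(C)-binding proteins, PCBP1 alone was called. PCBP1 (ENSG00000169564, chromosome 2, 70087477 to 70089203, plus strand), an intronless gene whose protein stabilises C-rich messages, had 263 and 255 CPM untreated, 292 and 302 with indisulam, 237 in both SPHINX31 libraries, and 297 and 291 with the combination. The 4 libraries with indisulam were again the highest (log2 fold change 0.20, SE 0.0459, adjusted p = 0.00356). Without untreated replicate 2 the value was 0.18 with an adjusted p of 0.0528, above the threshold. The antisense gene PCBP1-AS1 covers 73.2% of its exon bases on the opposite strand. HNRNPK (0.03), PCBP2 (0.05) and PCBP4 (-0.08) were not called.

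Both TIA1 proteins, which bind U-rich RNA beside weak donor sites, rose by 0.17. TIAL1 (ENSG00000151923, chromosome 10, 119571802 to 119597029, minus strand) had 112 and 116 CPM untreated, 130 and 126 with indisulam, 121 and 126 with SPHINX31, and 131 and 133 with the combination. The higher SPHINX31 library came within 1 CPM of the lower indisulam library (indisulam against untreated, SE 0.0491, adjusted p = 0.0119). Its call was lost without untreated replicate 1 (0.15, adjusted p = 0.116) and without indisulam replicate 1 (0.15, adjusted p = 0.0881), and that of TIA1 (adjusted p = 0.0499) was lost in several such fits. ELAVL1, the AU-rich element-binding HuR, was not called (0.06, SE 0.0479).

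Among the KH-domain proteins 2 of 6 rose and 1 fell. FUBP1 (ENSG00000162613, chromosome 1, 77944055 to 77979110, minus strand), a far-upstream element-binding protein that also acts at 3' splice sites, had 171 and 180 CPM untreated, 252 and 232 with indisulam, 155 and 172 with SPHINX31, and 230 and 240 with the combination. The groups with and without indisulam were apart by more than their spread (log2 fold change 0.46, SE 0.0609, adjusted p = 4.54e-05). FUBP3 rose by 0.26 (SE 0.0535), and KHDRBS1, the SRC substrate Sam68, fell by 0.17 (SE 0.0477). KHDRBS3 (0.33, SE 0.130, adjusted p = 0.051), QKI (-0.11) and KHSRP (-0.02) were not called.

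No member of the CELF and MBNL group, whose opposed actions are best known from muscle, was called (log2 fold changes from -0.05 to 0.15). CELF2 (ENSG00000048740, chromosome 10, 10798397 to 11336675, plus strand) had 26 counts in each untreated library, 21 and 27 with indisulam, 21 and 24 with SPHINX31, and 27 and 29 with the combination. In CPM the indisulam libraries spanned those of every other group. Both SPHINX31 libraries lay below the untreated ones and both combination libraries above them, by a few counts. At this depth the SE of its log2 fold change was 0.283 (0.04 with indisulam).

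The promoters below are shown for the 2 members with the largest increase and the 2 with the largest decrease under indisulam among called members that have a single promoter entry in the RefSeq table. The table, on GRCh38.p14, holds the 250 bases before and 50 after each RefSeq gene start and matched 41 of the 51 members. That start can differ from the bounds of the gene in GENCODE. The EWSR1 window lies wholly inside the GENCODE gene, and the HNRNPC window reaches more than 50 bases into it. Capitals mark the letters of any of 4 motifs on either strand, none of which contains another: the ETS core (CCGGAAG), the GC box (GGGCGG), the CCAAT box (CCAAT) and the TATA box (TATAAA). The intervals are chr14:21269393-21269692 on the minus strand for HNRNPC, chr21:33542788-33543087 on the plus strand for SON, chr22:29268018-29268317 on the plus strand for EWSR1 and chr5:178204283-178204582 on the plus strand for HNRNPAB, each printed 5′ to 3′ along its gene.
HNRNPC: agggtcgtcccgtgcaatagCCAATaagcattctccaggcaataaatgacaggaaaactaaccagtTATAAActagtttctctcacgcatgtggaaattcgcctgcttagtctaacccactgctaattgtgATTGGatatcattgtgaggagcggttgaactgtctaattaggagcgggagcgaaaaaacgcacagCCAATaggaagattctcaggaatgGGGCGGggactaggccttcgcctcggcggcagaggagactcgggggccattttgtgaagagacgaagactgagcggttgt
SON: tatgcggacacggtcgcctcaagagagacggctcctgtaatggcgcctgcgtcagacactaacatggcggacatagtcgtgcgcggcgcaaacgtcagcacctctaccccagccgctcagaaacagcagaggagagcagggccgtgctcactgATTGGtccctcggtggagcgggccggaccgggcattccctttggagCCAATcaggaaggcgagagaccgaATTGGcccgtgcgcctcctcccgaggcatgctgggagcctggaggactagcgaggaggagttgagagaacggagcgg
EWSR1: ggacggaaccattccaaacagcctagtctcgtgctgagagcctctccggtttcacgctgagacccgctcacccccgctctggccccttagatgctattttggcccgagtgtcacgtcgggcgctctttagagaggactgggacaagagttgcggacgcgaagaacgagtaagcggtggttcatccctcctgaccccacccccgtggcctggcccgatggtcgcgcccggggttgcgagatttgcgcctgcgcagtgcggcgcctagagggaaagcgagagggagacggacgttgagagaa
HNRNPAB: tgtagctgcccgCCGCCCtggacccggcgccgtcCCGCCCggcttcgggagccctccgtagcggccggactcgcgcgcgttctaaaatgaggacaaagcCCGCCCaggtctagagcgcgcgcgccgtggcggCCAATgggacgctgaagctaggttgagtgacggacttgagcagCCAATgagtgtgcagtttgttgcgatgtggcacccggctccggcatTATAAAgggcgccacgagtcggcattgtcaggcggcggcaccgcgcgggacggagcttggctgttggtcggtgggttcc
The promoters of HNRNPC and SON, which rose, each held 3 CCAAT letters, at 230, 119 and 54 bases before the start in HNRNPC and at 97, 51 and 27 bases before it in SON. HNRNPC also held a GC box 30 bases before the start, and a TATA match 184 bases before it. That of HNRNPAB, which fell, held 3 GC boxes, 2 CCAAT boxes at 118 and 75 bases before the start and a TATA match 29 bases before it, and that of EWSR1 held none of the 4 motifs. A match is a run of letters and not a site of binding.

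Over all matched members, a GC box was found in 33 of 41 (80.5%), against 48.3% of all 27305 genes in the table, and a CCAAT box in 25 (61.0%), against 39.7%. The genes of the table were not limited to protein-coding genes or to those expressed here, whereas all members are protein-coding and passed the filter on low counts. The sets compared in this paragraph are therefore unlike in this respect. The ETS core was found in 8 members (19.5%, against 12.2%) and the TATA box in 6 (14.6%, against 14.0%). The members have 77 promoter entries, more per gene than the 35116 entries of all genes, so that a match by gene is easier for them. By entry, a GC box stood in 59.7% of the members' promoters against 45.0% of all, and a CCAAT box in 39.0% against 34.6%. The ETS core stood in 10.4% against 10.3% by entry, and the TATA box in 9.09% against 11.5%. Among the 25 members with a single entry 18 held a GC box (72.0%, against 43.0% of all 22114 such genes), 12 a CCAAT box (48.0%, against 36.2%), 5 the ETS core (20%, against 10.7%) and 3 the TATA box (12.0%, against 12.7%). A CCAAT box stood in 12 of 16 members that rose with indisulam, 4 of 7 that fell and 9 of 18 not called. For the GC box these counts were 12, 6 and 15. The members' promoters were also richer in G and C, with a median of 65.0% against 58.7%.

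Related members were also set against each other within each library. Since both genes of a pair are counted in the same library, their ratio does not depend on library scaling, and 16 pairs of relatives were compared between the 4 libraries with indisulam and the 4 without, a set of pairs chosen after the fold changes had been seen. The ratios are therefore a description, with no test. In 13 of the 16 pairs they did not overlap between both sides. How often other gene pairs separate in this way was not computed, so the count cannot be read as particular to relatives. Of all tested genes, 43.7% were called with indisulam against untreated cells and 49.9% with the combination against SPHINX31. The 4 libraries of each side hold 2 pairs of technical replicates. HNRNPC had 7.63 and 8.36 counts per RALY count in untreated cells, 13.6 and 12.3 with indisulam, 7.03 and 7.61 with SPHINX31, and 11.9 and 12.8 with the combination. This ratio moved most, by 0.73 on the log2 scale (3.66 ± 0.0795 with and 2.93 ± 0.102 without indisulam, SD, n = 4 each).

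For HNRNPDL against HNRNPD, neighbours on chromosome 4, the count ratio was 0.929 and 0.928 in untreated cells, 1.37 and 1.45 with indisulam, 0.880 and 0.915 with SPHINX31, and 1.48 in both combination libraries. In TPM, which divides by exon length, HNRNPDL was already the higher of the pair in untreated cells (171 against 145) and with SPHINX31 (164 against 144). The raw count of HNRNPDL alone went from the lower to the higher of the pair, a difference of 0.66 in log2 ratio. The differences were 0.52 for HNRNPH2 over HNRNPH1, 0.48 for TRA2A over TRA2B, 0.46 for HNRNPUL1 over HNRNPU, and 0.42 for HNRNPF over HNRNPH3. Smaller ones were 0.32 for HNRNPL over HNRNPLL, 0.28 for HNRNPA2B1 over HNRNPA1, 0.23 for PCBP1 over PCBP2, 0.18 for FUBP1 over FUBP3 and 0.16 for HNRNPA3 over HNRNPA1. In the other direction, ESRP1 lost ground to ESRP2 (-0.37) and SYNCRIP to HNRNPR (-0.14). The ratios of EWSR1 to TAF15 (-0.06), TIA1 to TIAL1 (0.06) and MBNL1 to MBNL2 (-0.11) overlapped.

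SPHINX31 alone was accompanied by few and small differences. The FET proteins EWSR1 and TAF15 and the hnRNP HNRNPA2B1 fell, and no member rose. These 3 of 51 calls stand beside 8.61% of all tested genes called, 4.94% higher and 3.67% lower. Scaling on total counts moved the split of all calls from 57.3% to 72.3% higher, and left as members called EWSR1 and HNRNPA2B1, both lower. The median log2 fold change was -0.05 over the members and -0.006 over all tested genes. Where the average log2 CPM was 5 or more, 3 of 43 members (6.98%) and 14.0% of all tested genes were called.

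EWSR1, with the values given above, fell by 0.29 on the log2 scale (SE 0.0440, adjusted p = 0.00155) and kept its call with each library left out. HNRNPA2B1 had 1838 and 1883 CPM untreated, 1514 and 1662 with SPHINX31, 2303 and 2136 with indisulam, and 2001 and 2044 with the combination. It lay below untreated cells with SPHINX31 (-0.23, SE 0.0542, adjusted p = 0.0193) and above them with indisulam, with the combination in between (0.12, adjusted p = 0.0803). TAF15 had 262 and 265 CPM untreated and 235 and 225 with SPHINX31, a difference of -0.20 (SE 0.0548, adjusted p = 0.043). The calls of HNRNPA2B1 and TAF15 were lost without either untreated library or without SPHINX31 replicate 1, which left 1 call, and without SPHINX31 replicate 2 there were 5. TAF15 was also lost without SPHINX31 replicate 2 or either combination library. A correction for GC content gave 11 members, all lower, adding HNRNPA3, HNRNPC, HNRNPDL, HNRNPK, KHDRBS1, SON, TARDBP and TRA2A.

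The combination was then compared with indisulam alone to see what SPHINX31 added. EWSR1, HNRNPAB and TRA2A were lower with the combination, and SRRM2 was higher. The 4 calls (1 higher, 3 lower) stand beside 7.50% of all tested genes called, 3.17% higher and 4.32% lower. Scaling by total counts gave 2 higher and 3 lower, adding MBNL2, and moved the share of higher calls over all genes from 42.3% to 65.4%. The median log2 fold change over the members was -0.03, and 0.02 with that scaling. Where the average log2 CPM was 5 or more, 4 of 43 members (9.30%) and 13.0% of all tested genes were called. EWSR1 fell by 0.43 (SE 0.0444, adjusted p = 1.72e-04). It was called in each of the 5 comparisons between groups.

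HNRNPAB had 212 and 205 CPM with indisulam and 175 and 182 with the combination (-0.23, SE 0.0495, adjusted p = 0.014). TRA2A, at 103 and 98.7 CPM with indisulam, was at 84.8 and 85.9 with the combination (-0.24, SE 0.0519, adjusted p = 0.0127). The increase of TRA2A over untreated cells, at 66.9 and 68.2 CPM, was thus smaller with the combination. SRRM2 had 664 and 736 CPM untreated, 820 and 705 with indisulam, 688 and 750 with SPHINX31, and 1071 and 929 with the combination, where it rose by 0.39 (SE 0.0812, adjusted p = 0.0106). Its single treatments overlapped with untreated cells and the combination did not. HNRNPAB and TRA2A lost their calls without indisulam replicate 1 or either combination library, and SRRM2 without indisulam replicate 2 or combination replicate 1. The count was then 2, except 3 without indisulam replicate 2.

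**Figure D2:**
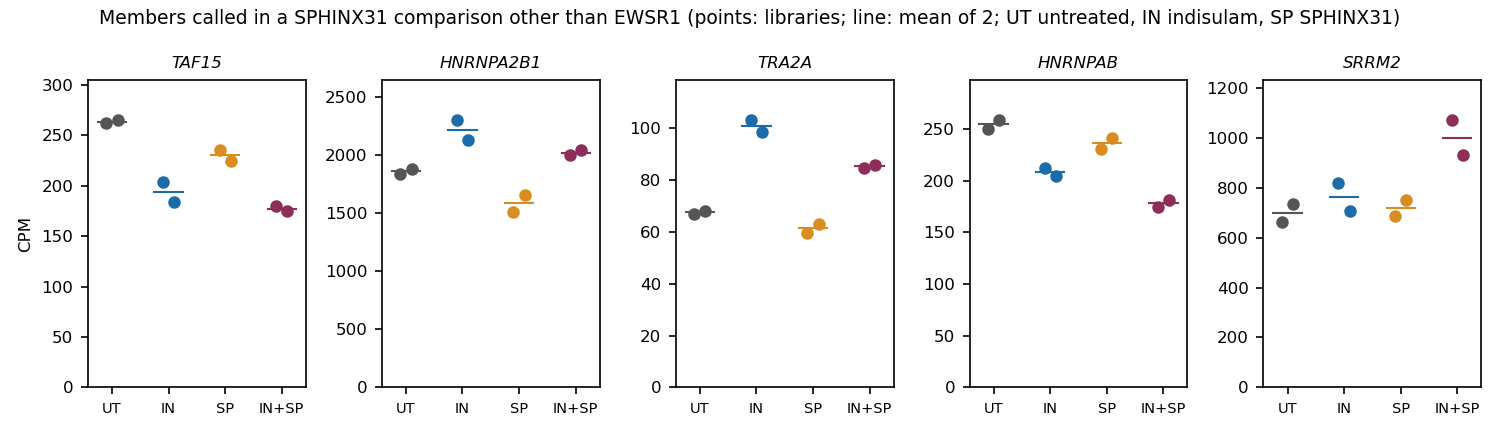
CPM (y axis, from 0) per library of the 5 members besides EWSR1 that were called in SPHINX31 against untreated or in the combination against indisulam (points, with the group mean as a line). TAF15 and HNRNPA2B1 were lower with SPHINX31 than in untreated cells, TRA2A and HNRNPAB lower and SRRM2 higher with the combination (IN+SP) than with indisulam.

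Against untreated cells the combination called 34 members, 22 higher and 12 lower, beside 50% of all tested genes (23.8% higher and 26.3% lower). The median log2 fold change was 0.06 over the members and 0.001 over all tested genes. Scaling by total counts gave 24 higher and 11 lower members and moved the share of higher calls over all genes from 47.5% to 55.3%. Where the average log2 CPM was 5 or more, 28 of 43 members (65.1%) and 59.2% of all tested genes were called. MATR3 (0.96, SE 0.156), SRRM1 (0.70, SE 0.0592), HNRNPL (0.53, SE 0.0480) and SRRM2 (0.51, SE 0.0813) had the largest increases. EWSR1 (-0.83, SE 0.0444, adjusted p = 9.26e-09), ESRP1 (-0.81, SE 0.0779), TAF15 (-0.57, SE 0.0551) and ESRP2 (-0.55, SE 0.135) had the largest decreases. EWSR1 thereby fell to 0.561 of its untreated level. Of the 34 calls 22 stayed with each library left out. CELF1, HNRNPD, HNRNPF, HNRNPM, HNRNPR, HNRNPUL1, KHDRBS3, MBNL2, PCBP1, PCBP4, RALY and SON were lost at least once, and the count went as low as 25 without untreated replicate 1, 26 without untreated replicate 2 and 26 without combination replicate 2.

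The combination against SPHINX31 measures indisulam in libraries that the first comparison did not use. It called 32 members, 21 higher and 11 lower, beside 49.9% of all tested genes (23.4% higher and 26.5% lower). Where the average log2 CPM was 5 or more, the shares were 65.1% of 43 members and 60.5% of all tested genes. With each library left out 25 of them stayed, and the count was lowest at 27, without combination replicate 2. Of these 32, 27 were also called with indisulam against untreated cells, which are 27 of the 29 called there, and all 27 had the same direction. Of all tested genes 43.7% were called with indisulam against untreated cells, and the share called in both comparisons was not computed. Across the 51 genes, which are not independent replicates, the log2 fold changes of both comparisons had a Pearson correlation of 0.951 and a Spearman correlation of 0.922, and 47 had the same sign. TIAL1 and KHDRBS1 were called without SPHINX31 only, and HNRNPM, PCBP4, HNRNPUL1, QKI and SRRM2 in its presence only, differences that the interaction below did not call. For SPHINX31 the same step, SPHINX31 against untreated beside the combination against indisulam, gave 32 members of the same sign and 1 gene called in both, EWSR1, with a Pearson correlation of 0.464 and a Spearman correlation of 0.440. For neither compound were the shared signs and correlations computed over all tested genes, so they cannot be read as particular to the members.

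**Figure D3:**
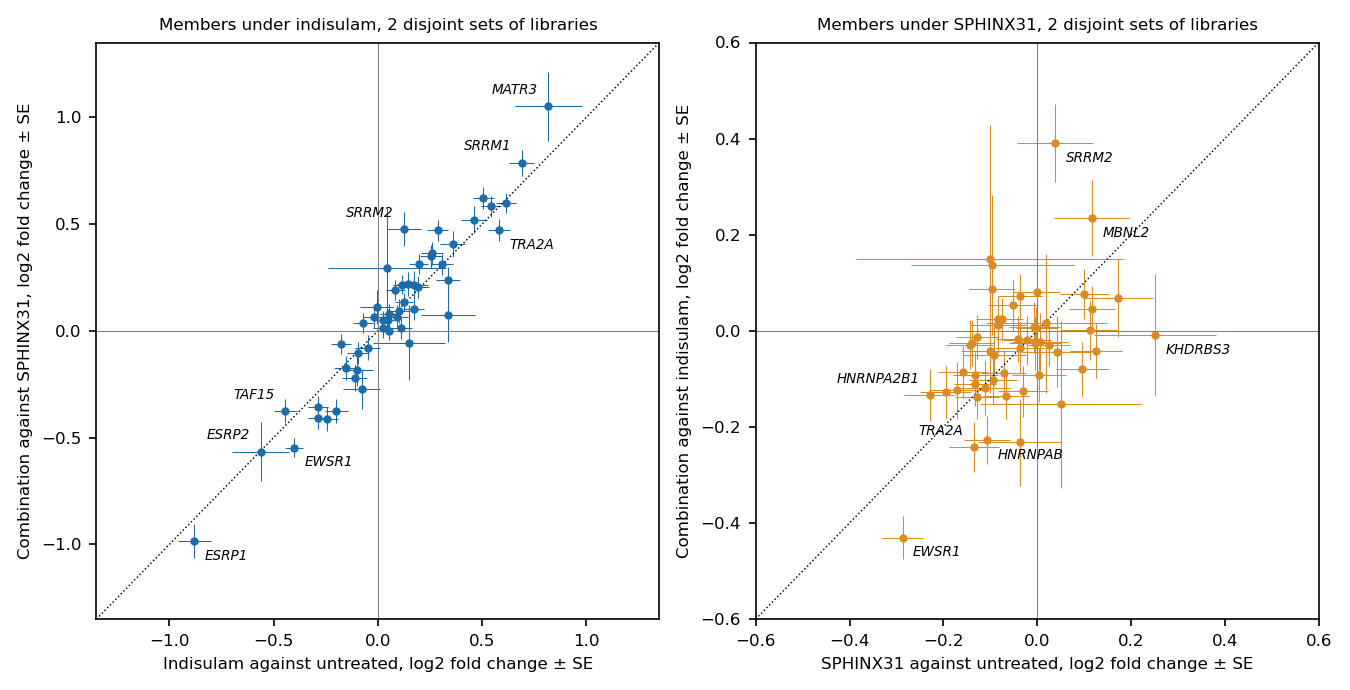
Log2 fold changes (± SE) of the 51 members in comparisons that share no library: indisulam against untreated (x) and the combination against SPHINX31 (y), left, and SPHINX31 against untreated (x) and the combination against indisulam (y), right. The Pearson correlation was 0.951 on the left and 0.464 on the right, where the axes span a smaller range. In both panels the vertical distance of a gene from the dotted line of equal values is its interaction. The correlations were not computed over all tested genes.

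Whether the combination departs from the sum of both single treatments was tested gene by gene as an interaction on the log2 scale. The edgeR test called it for 0 members and 0% of all tested genes, and an unadjusted p under 0.05 was found for 4 members and 1584 of all tested genes. DESeq2 called 0 members, beside 4 genes higher and 27 lower over the whole table. The 4 members with an unadjusted edgeR p under 0.05 were SRRM2 (0.35, SE 0.115, adjusted p = 0.448), HNRNPH2 (0.18, SE 0.0687), EWSR1 (-0.14, SE 0.0624) and HNRNPH3 (-0.18, SE 0.0802). Keeping all genes with at least 1 count instead of filtering called SRRM2, 1 of 32 genes higher, with 62 lower, over the whole table. A p that misses the threshold does not show that the effects added up.

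The other regulators of splicing, outside the 51, were followed as 55 genes, of which 48 passed the filter on low counts. With indisulam 25 rose and 10 fell (72.9% called, beside 43.7% of all tested genes). The SR proteins had 9 of 12 higher and 1 lower: SRSF1, the founding member, rose by 0.78, SRSF3 by 0.45 and SRSF4 by 0.41, and SRSF6 fell by 0.21. Of 27 further exon-choice factors 13 rose and 7 fell, among them PTBP1, the pyrimidine-tract repressor (0.42), the CLK4 kinase (0.99) and RBM10, a regulator of exon skipping (-0.51). With SPHINX31 1 of the 48 rose, CLK3 (0.36), and 5 fell: RBM4 (-0.32), RBMX (-0.28), CLK2 (-0.28), SRSF2 (-0.26) and SRSF9 (-0.18). These calls are 12.5% of the 48, beside 8.61% of all tested genes. The combination differed from indisulam in 5 (10.4%, beside 7.50% of all tested genes), of which RBMX fell (-0.28) and CLK3, CLK4, SRSF8 and U2AF2 rose. Among all tested genes with an average log2 CPM of 5 or more, 52.2% were called with indisulam and 14.0% with SPHINX31. For the combination against indisulam that share was 13.0%.

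Many of these genes have annotated transcripts that are targets of decay. GENCODE lists at least 1 NMD transcript for 35 of the 51 (68.6%), against 46.2% of the 14010 tested protein-coding genes, and a retained-intron transcript for 39 (76.5%), against 59.0%. The members also have more annotated transcripts of any type, a median of 16 against 8, so that at least 1 of a given type is easier to find. An NMD transcript was annotated for 15 of the 19 members that rose with indisulam, 4 of the 10 that fell and 16 of the 22 not called. Across the 51 genes the Spearman correlation of the indisulam log2 fold change was 0.11 with the number of NMD transcripts, -0.04 with that of retained-intron transcripts, -0.18 with GC content and 0.06 with exon length. HNRNPA2B1 has the most annotated NMD transcripts (35), and HNRNPA1, with 18, and TARDBP, with 15, were not called with indisulam. The counts are summed over all transcripts of a gene, so that shifts between its isoforms were not analysed here.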

How the data were processed

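RNA of the 8 A549 libraries was polyadenylated RNA made into stranded libraries. The authors deposited whole-number read counts per Ensembl gene, without normalization, together with the reads left in no gene, in several genes or without a unique alignment. The submitters' processing notes name HISAT2 2.2.1, HTSeq and GRCh38. The annotation and strand setting used for counting are not given in the sources used here. Rows of unassigned reads, 14.0% to 17.0% of all reads, stayed out of library sizes and tests.

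Gene names, exon lengths, transcript types and overlaps were taken from GENCODE release 44. The test was edgeR 4.0.16 in R 4.3.3 (filterByExpr with a minimum count of 10, TMM scaling, quasi-likelihood test, Benjamini-Hochberg adjustment over 18661 genes, threshold 0.05). All 8 libraries entered one fit of 4 groups with 4 residual degrees of freedom before moderation over genes. The SE is the absolute log2 fold change from the unshrunk coefficients of the fit, divided by the square root of the F statistic. The printed log2 fold changes are the shrunken values that edgeR reports. Depth gives an SE of about 0.05 for most members and of 0.283 for CELF2 with 21 to 29. DESeq2 1.42.0 was an alternative, and Python 3.11.15 gave the descriptions of promoters and ratios. The procedure was tested on simulated data.

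Groups follow the treatment field of the labels, which name no batch. The replicates were not copies of one library, with a chi-square of 6.60 to 10.7 per degree of freedom between them. The members, families and lists were chosen with earlier results of these data known. Values per library are printed for members past 1.5-fold in any comparison and, in other families, for the member with the largest change. Other members given per library, HNRNPC among them, were added after their values were seen. Alternatives were other scalings (RLE, total counts), DESeq2, other filters, only the groups compared, GC correction over 50 bins, a replicate block, a threshold of 0.1 and leaving out each library. Promoter sequences are from RefSeq on GRCh38.p14, and protein sequences were not used here.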

Additional observations from a re-analysis of the deposited data

Results flagged for a closer look

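Reads outside the gene counts were more frequent with indisulam than in untreated cells. Reads in no annotated gene made up 4.139% in untreated cells (mean of 2 libraries), 4.986% with indisulam and 5.373% with the combination. Reads in more than one gene, the class that reads of MATR3 and of other members with overlapping records can fall into, made up 5.951% with indisulam against 5.048% in untreated cells. With the combination, which also contains indisulam, this class made up 4.99% and 4.96%, against 5.22% and 4.88% in the untreated libraries, and did not stand above them. With SPHINX31 it made up 5.94% and 4.82%. Reads without a unique alignment made up 5.671% with indisulam and 5.663% with the combination, against 5.447% in untreated cells. Each was flagged, apart from reads in more than one gene with the combination, because both libraries of the group lay above both untreated libraries in data that the comparisons did not use. On chromosome 5, where MATR3 lies, the ambiguous reads numbered 129755 and 118226 in the untreated libraries and 148419 and 120685 with indisulam. They numbered 135344 and 114334 with SPHINX31, and 107207 and 107379 with the combination, in which the mean CPM of MATR3 was highest. These are raw numbers, not scaled to the size of the libraries, which held from 61706807 to 74028500 reads. The part of ambiguous reads in the values of MATR3 was not tested.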

How the results depend on the processing

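The 102 called values of the members (51 genes in 6 comparisons) kept their direction under each alternative. Of the 204 values not called, 78 took both signs, the largest of these at 0.25 on the log2 scale. The member median of the combination against indisulam went from -0.03 to 0.02 with total-count scaling, and the median of all genes for SPHINX31 against untreated cells from -0.006 to 0.028. The members called with indisulam stayed between 28 and 31 under other scalings, filters, tools and thresholds and between 22 and 30 with each library left out. With the combination against untreated cells these ranges were 32 to 36 and 25 to 34, and against SPHINX31 32 to 35 and 27 to 33. The count for SPHINX31 against untreated cells (3) was the least stable: it was 11 with GC correction, 9 with the replicate block and GC correction together, 8 at an adjusted p under 0.1, and between 1 and 5 with each library left out. The combination against indisulam (4) ranged from 2 to 4 with each library left out. It was 5 with total-count scaling or genes kept from 1 count, and 6 with GC correction or at an adjusted p under 0.1. The interaction called 1 member, SRRM2, when genes were kept from 1 count. The cause of these moves was not tested.

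Replicate numbers are shared between groups, but deviations of same-numbered libraries did not go together in every pair of groups. Correlations over 9490 genes were -0.582 for untreated and indisulam, -0.501 for indisulam and SPHINX31, and 0.457 for untreated and SPHINX31. They were from 0.019 to 0.178 for the pairs with the combination. Whether libraries of different groups share a batch or a pairing was not tested. A replicate block called 28 members with indisulam, 3 with SPHINX31, 33 with the combination, 4 for the combination against indisulam, 32 against SPHINX31 and 0 for the interaction. Among the other splicing regulators it called 3 in place of 6 with SPHINX31. Exchanging the 2 indisulam numbers in the block, an alternative added after seeing the data, gave 31, 10, 35, 6, 35 and 0 members in the same order.

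Single members were followed through all settings only if they passed 1.5-fold in any comparison or, in other families, had the largest change. Of the values of these members, 4 lost and 9 gained a call and 1125 kept theirs. The members were chosen for large changes in the same data, so this tally does not measure how stable the calls of all members were. Calls of other members were also lost with a library left out, as listed above. Total-count scaling moved the median of all genes by at most 0.05 on the log2 scale. Depth limits CELF2, MBNL3 and MATR3, whose counts per library were 21 to 29, 81 to 101 and 81 to 217.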
